A study of Mus musculus with 8 samples.

Results

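The cells described here are the resting blood neutrophils of cluster 1 of the authors' clustering. A cell was a member when its deposited cluster value was 1 and its name placed it in peripheral blood (PB) of mice given PBS. This held for 341 of the 348 PBS-primed PB cells and of 1421 cells in all. The other 7 PBS-primed PB cells carried cluster value 0. Both batches contributed members. In batch 7 they were 89 of 90 cells of sample 1 and 85 of 86 cells of sample 2, and in batch 6 they were 87 of 88 cells of plate 1 and 80 of 84 cells of plate 2.

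The study sequenced single neutrophils of PB and bone marrow (BM) by SCRB-seq, a plate method that tags the 3' end of each transcript with a unique molecular identifier (UMI). The mice were male C57BL/6J animals of 7 to 12 weeks, and no transgene or deletion is given for these samples. They were injected intraperitoneally with PBS alone (PBS-primed PB and BM) or with 0.5 mg/kg LPS (LPS-primed PB and BM). In the titles PBS samples stand at 0 h and LPS samples at 4 h, whereas the study's methods describe cell preparation after either injection. Each of the 4 groups had 2 labelled samples, all in batch 7. The cells of batch 6 carry a group and a plate but no sample, so they are given as pooled values and entered no main test. Neutrophils were enriched by negative selection with a magnetic kit and picked singly by mouth pipette. The labels do not say whether samples 1 and 2 of a group came from separate mice, so the p-values measure the spread between these samples.

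Neutrophils are made in the marrow, where precursors fill their granules in a fixed order, with primary granules first and secondary and tertiary granules later, and then cease transcribing the genes of the granule proteins. Mature cells pass into blood and live there for a short time, guided by the receptors CXCR2 and CXCR4 and by G-CSF. Resting cells already hold transcripts of the cytokine precursor IL-1β and of immediate early genes, a class that is transcribed within minutes of a stimulus without new protein synthesis and that also responds to handling of cells.

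Total UMIs of the members were 5035763 and 3167304 in samples 1 and 2 and 4573592 and 5095564 in plates 1 and 2. The 17 libraries of the series drew on the same 95 cell barcodes, each of which occurred in more than 1 library. Comparisons with clusters 0 and 2 use the libraries that held most of those cells, which were 9 BM libraries for cluster 0 (34 to 89 cells each) and 4 LPS-primed PB libraries for cluster 2 (42 to 94 cells each). The clusters were made from the expression of these same cells, so the values by cluster are a description without a test. Tests were made between groups named by the labels, over all cells of a sample. Levels are given as CPM, the UMIs of a gene divided by all UMIs of the cells summed and multiplied by 1000000. Each transcript is counted once at its 3' end, so CPM carries no length term.

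The label was checked against genes that define neutrophils. All 10 of them were detected in every member library. S100a8 and S100a9, which encode both chains of calprotectin, were the 2 most abundant transcripts of the members and took 12.10% and 12.42% of UMIs in samples 1 and 2, and 10.19% and 15.01% in plates 1 and 2. Csf3r, the G-CSF receptor, stood at 6746, 5832, 7052 and 5112 CPM. Ly6g, the antigen by which mouse neutrophils are commonly sorted, was low at 49.1, 124, 25.6 and 10.2 CPM, against 785 to 1112 CPM in cluster 0. In the label contrasts 7 of these 10 genes were called lower than in PBS-primed BM and 1, Csf3r, higher. Of all genes tested, 1.43% were called lower and 1.18% higher. UMIs of marker genes of other blood cells were also found, with values given further on.

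The 6 genes that were given as markers of the cluster were high in all 4 member libraries. Il1b, which encodes the precursor of IL-1β, stood at 5550 and 6613 CPM in samples 1 and 2 and at 8682 and 8780 CPM in plates 1 and 2. It lay between 42.6 and 305 CPM in cluster 0 and between 2420 and 2710 CPM in cluster 2. The 3 ranges did not overlap on this scale, which uses library size alone. Fos, a subunit of the transcription factor AP-1, stood at 3652, 3583, 8239 and 8578 CPM, against 94.95 to 655 CPM in cluster 0 and 115 to 279 CPM in cluster 2. Junb, another AP-1 subunit, stood at 2075, 2149, 1724 and 3024 CPM, against 80.8 to 428 CPM in cluster 0 and 380 to 985 CPM in cluster 2. Dusp1, a phosphatase that switches off MAP kinases, stood at 2983, 2761, 6076 and 6168 CPM. It was the marker nearest to cluster 2, where it lay between 1651 and 2407 CPM, and it lay between 100.5 and 768 CPM in cluster 0.

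The remaining markers encode surface and secreted proteins. Clec7a, the β-glucan receptor dectin-1, stood at 1816, 1288, 1734 and 1370 CPM, against 55.3 to 230.0 CPM in cluster 0 and 37.7 to 241 CPM in cluster 2. Fgl2, a fibrinogen-like protein with membrane-bound and secreted forms, stood at 1834, 1401, 2306 and 1647 CPM. It lay between 31.2 and 146 CPM in cluster 0 and between 141 and 322 CPM in cluster 2. For each of the 6 genes every member library was above every library of clusters 0 and 2. These CPM are scaled by library size alone, and the gap to cluster 2 depends on the scaling for Il1b and Dusp1. Between PBS-primed PB and LPS-primed PB their log2 fold changes were 0.89 and 0.52 with library size alone. With TMM they were -0.03 and -0.40. The 6 markers summed to between 17800 and 29570 CPM in the members, between 667 and 2020 CPM in cluster 0 and between 4809 and 6452 CPM in cluster 2.

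**Figure D1:**
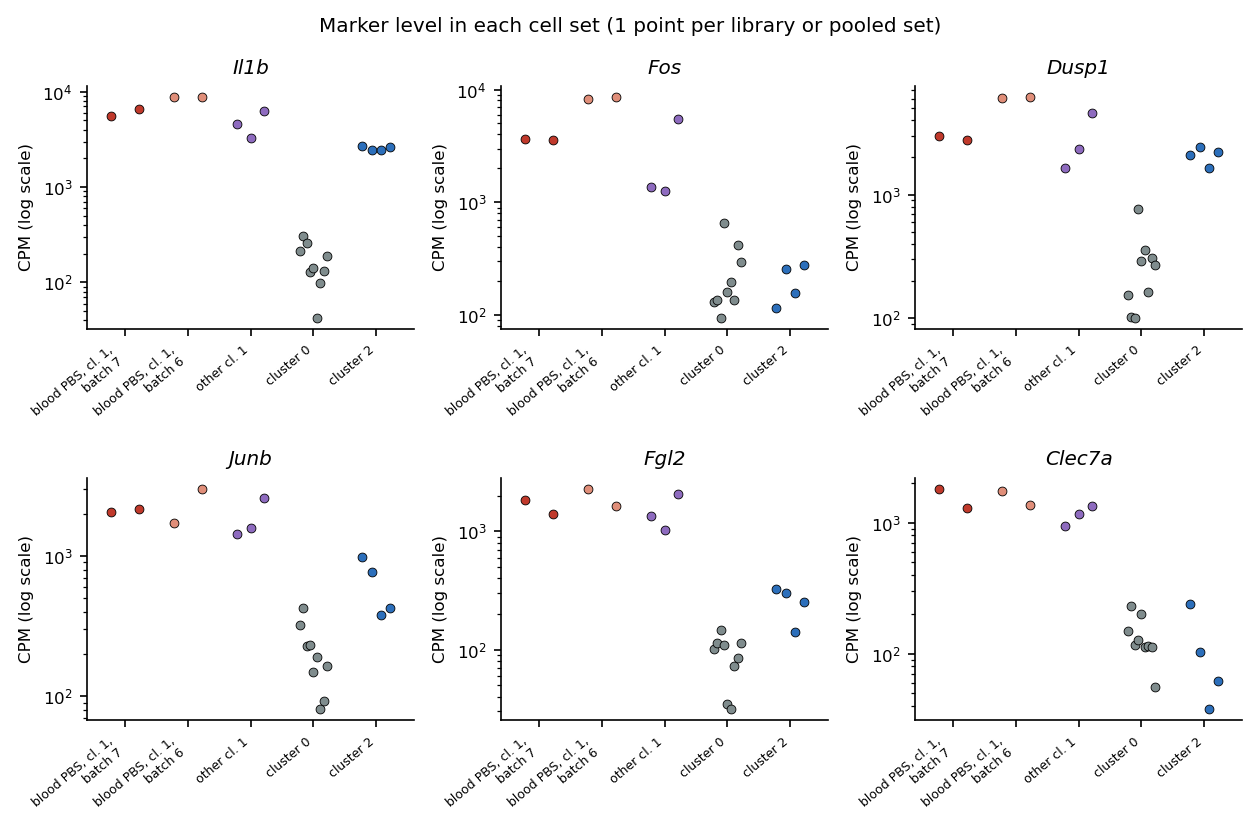
CPM of the 6 markers on a log axis, 1 point for each library or pooled set of cells, for the members in batch 7 and batch 6, the other cells of cluster 1 in 3 pooled sets, cluster 0 and cluster 2. Member points lie above all points of clusters 0 and 2 for each gene, with Fos and Dusp1 higher in batch 6 (8239 and 8578 CPM, 6076 and 6168 CPM) than in batch 7 (3652 and 3583 CPM, 2983 and 2761 CPM).

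The batches differed for part of this set. Fos, Dusp1 and Il1b were higher in both plates of batch 6 than in both samples of batch 7, whereas for Junb, Fgl2 and Clec7a the plates did not both lie on 1 side of the samples. Batch 7 samples and batch 6 plates also differed in liver and platelet transcripts. With liver genes removed from the totals, the 6 markers summed to 17930 CPM in the batch 7 members in place of 17850 CPM. The part of liver and platelet transcripts in the batch differences was otherwise not tested.

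The 200 bases before the annotated start of 4 of the markers are printed because each holds at least 1 of 2 short motifs, which the other markers, Fgl2 and Clec7a, did not hold. They were read from RefSeq on GRCm38.p6, each on the strand of its gene, for Fos (chr12:85473690-85473889, plus strand), Dusp1 (chr17:26508473-26508672, minus strand), Junb (chr8:84978749-84978948, minus strand) and Il1b (chr2:129371140-129371339, minus strand). Capitals mark TGACG on either strand, the core of the cyclic AMP response element, and TATAAA, the TATA box.
Fos: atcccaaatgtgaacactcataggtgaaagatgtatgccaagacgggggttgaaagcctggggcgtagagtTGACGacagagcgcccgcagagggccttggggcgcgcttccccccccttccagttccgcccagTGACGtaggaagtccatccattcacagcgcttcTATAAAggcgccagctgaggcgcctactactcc
Dusp1: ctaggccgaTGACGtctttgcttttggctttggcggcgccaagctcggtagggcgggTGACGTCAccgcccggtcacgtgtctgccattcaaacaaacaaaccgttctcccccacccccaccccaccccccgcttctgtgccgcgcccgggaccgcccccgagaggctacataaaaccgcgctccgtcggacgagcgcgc
Junb: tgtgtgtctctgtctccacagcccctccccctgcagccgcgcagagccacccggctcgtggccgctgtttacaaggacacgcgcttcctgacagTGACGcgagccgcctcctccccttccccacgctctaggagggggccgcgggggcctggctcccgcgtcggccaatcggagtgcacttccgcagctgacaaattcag
Il1b: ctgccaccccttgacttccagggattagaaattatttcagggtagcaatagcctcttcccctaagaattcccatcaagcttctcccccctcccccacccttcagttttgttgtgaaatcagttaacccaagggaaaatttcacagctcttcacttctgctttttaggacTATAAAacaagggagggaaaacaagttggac

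Fos held TGACG at 129 and 66 bases and TATAAA at 33 bases before its start. Dusp1 held TGACG at 191 and 143 bases, the second as part of the full palindrome TGACGTCA, whose second core is the match on the minus strand at 140 bases. Junb held TGACG at 106 bases, and Il1b held TATAAA at 31 bases. Over all 32851 windows of this length, searched on both strands, 15.7% held TGACG, 1.47% held TGACGTCA and 9.96% held TATAAA. Among the 16 immediate early genes with a window outside the chromosomes not read here, TGACG stood in 7 (Fos, Fosb, Junb, Atf3, Dusp1, Btg2 and Nr4a1), TGACGTCA in 2 and TATAAA in 1. The general form of an NF-κB site, GGG and CC parted by any 5 bases, stood in 11 of these 16 genes and in 41.4% of all windows. A gene was counted when any window under its name held the motif. Counts of genes and shares of single windows are therefore not on the same scale. A match is a string of letters and not a bound site.

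Whether the same genes differed between groups named by label was tested with edgeR on UMI sums per sample. Against PBS-primed BM, 221 of 8478 genes (2.61%) passed an adjusted p of 0.05, 100 higher (1.18%) and 121 lower (1.43%) in PBS-primed PB neutrophils. Against LPS-primed PB neutrophils, 334 genes (3.94%) passed, 40 higher (0.472%) and 294 lower (3.47%). Both comparisons share the 2 PBS-primed PB samples and are given side by side. The split depended on the scaling. TMM factors were 1.347 and 1.375 in PBS-primed PB against 0.7477 and 0.6942 in LPS-primed PB, and the median log2 difference of all genes was 0.15 against BM and 0.11 against LPS-primed PB. With library size alone these medians were 0.67 and 1.02, and the splits were 213 higher and 84 lower against BM and 268 higher and 140 lower against LPS-primed PB. In the pooled cells of batch 6, on the CPM scale, 76 of the 100 higher and 113 of the 121 lower genes against BM had the same direction, and 38 of the 40 and 254 of the 294 against LPS-primed PB. Without PBS-primed PB sample 1 the calls were 115 and 159, and without sample 2 they were 108 and 146.

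All 6 markers were called higher in PBS-primed PB than in PBS-primed BM, with a median log2 fold change of 2.24, beside 1.18% of all genes. Il1b was at 5551 and 6466 CPM in PBS-primed PB and at 367 and 357 CPM in BM, a log2 fold change of 3.53 ± 0.22 (SE, edgeR adjusted p = 6.06e-06). Junb was at 2074 and 2128 CPM against 393 and 262 CPM, with 2.17 ± 0.26 (SE, edgeR adjusted p = 0.00132). Fgl2 changed by 2.76 ± 0.39, Fos by 2.31 ± 0.40, Clec7a by 1.94 ± 0.33 and Dusp1 by 1.43 ± 0.28 on the log2 scale (SE). All 6 calls held with each scaling and with DESeq2 and limma. Without PBS-primed PB sample 1 the calls of Fos, Clec7a and Dusp1 were lost, and without sample 2 those of Fos and Dusp1. The call of Clec7a was also lost without BM sample 1 and that of Dusp1 without BM sample 2. These genes were chosen as markers with earlier results of these data known, so the counts are not independent evidence.

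Against LPS-primed PB neutrophils 1 of the 6 markers was called. In LPS-primed PB, 83 of 177 cells of batch 7 (46.9%) and 1 of 186 cells of batch 6 were themselves in cluster 1. The part of such cells in the values below was not tested. Fos was at 3649 and 3511 CPM against 598 and 640 CPM in LPS-primed PB, a log2 fold change of 1.62 ± 0.39 (SE, edgeR adjusted p = 0.0472). This call was lost when any 1 sample of PBS-primed PB, LPS-primed PB or LPS-primed BM was left out. Il1b was at 3583 and 2939 CPM in LPS-primed PB, with a log2 fold change of -0.03 that became 0.89 with library size alone, and Dusp1 had -0.40, which became 0.52. Fgl2, Clec7a and Junb had log2 fold changes of 0.37, 0.91 and 0.08. Batch 6 gave wider gaps as pooled values without a test. For PBS-primed PB, LPS-primed PB and PBS-primed BM in that order, Il1b was at 8590, 2527 and 467 CPM and Dusp1 at 6009, 1899 and 520 CPM. All 6 markers were higher in PBS-primed PB than in either other group of that batch.

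The list of 18 immediate early genes holds transcription factors, feedback inhibitors and RNA-binding proteins. Its 18 genes were all detected in every member library and summed to between 16020 and 27330 CPM in the members, between 2074 and 3892 CPM in cluster 0 and between 8125 and 12670 CPM in cluster 2. Against PBS-primed BM, 8 of the 18 were called higher and 0 lower, beside 1.18% and 1.43% of all genes. The median log2 fold change was 1.87. The called transcription factors were Fos, Junb, Jund, Egr1 and Klf2, and the called regulators were Dusp1, Ier5 and Zfp36, which promotes decay of cytokine mRNAs. Klf2, a factor tied to quiescence in several blood cells, was at 1401 and 1390 CPM against 205 and 157 CPM in BM, with 2.43 ± 0.26 (SE, edgeR adjusted p = 0.000628). Egr1 was at 233 and 287 CPM against 6.17 and 5.86 CPM. Without either PBS-primed PB sample in turn, Junb and Klf2 alone of the 8 kept their calls.

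Against LPS-primed PB the same list gave 1 gene higher (Fos) and 2 lower, beside 0.472% and 3.47% of all genes. Its median of -0.25 became 0.66 with library size alone. The lower genes were Nfkbia, the inhibitor of NF-κB, at 428 and 438 CPM against 2768 and 2176 CPM (log2 fold change -3.42), and Ier3, at 117 and 169 CPM against 624 and 502 CPM (log2 fold change -2.88). Both were still called with library size alone. Fos and Nfkbia were thus called in opposite directions within 1 list.

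In the list of IL-1 family genes and other cytokines, the direction of the calls differed between the 2 comparisons. Against PBS-primed BM, 3 of 16 genes were called higher (Il1b, Ccl4 and Cxcl10) and 0 lower, beside 1.18% and 1.43% of all genes. The median log2 fold change was 0.92. Ccl4 and Cxcl10 were low in both groups, at 21.8 and 35.2 CPM and at 12.7 and 19.8 CPM in PBS-primed PB. Both lost these calls with limma-voom, and Cxcl10 also without PBS-primed PB sample 2 and after thinning to 5000 UMIs. Against LPS-primed PB, 10 of 16 were called lower and 0 higher, with a median of -3.27, beside 3.47% of all genes. Cxcl10, an interferon-induced chemokine, was at 2132 and 2096 CPM in LPS-primed PB (log2 fold change -7.95 ± 0.63, SE, edgeR adjusted p = 4.1e-05), and Ccl4 was at 1052 and 1666 CPM (-6.51). The others were Ccl3 and Cxcl2, the antagonist Il1rn, the decoy receptor Il1r2, Casp1, Casp4, Nfkbiz and Acod1. Casp1, Casp4 and Nfkbiz lost their calls with library size alone. Without either PBS-primed PB sample in turn, 5 of the 10 calls were kept.

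Several genes of this list were lower in the members than in cluster 2 while Il1b was higher. Il1rn lay between 316 and 508 CPM in the members and between 2743 and 3097 CPM in cluster 2, and Il1r2 between 244 and 500 CPM against 2265 and 2581 CPM. Ccl6, a chemokine of resting myeloid cells, went the other way, at 3600, 2875, 3241 and 3163 CPM in the members against 66.0 to 311 CPM in cluster 2 and 570 to 1247 CPM in cluster 0. Its label contrast against LPS-primed PB was not past the threshold (log2 fold change 1.20, edgeR adjusted p = 0.0504). Ccl3, Ccl4 and Cxcl2 differed between the batches. Ccl4 was at 21.8 and 36.0 CPM in samples 1 and 2 and at 792 and 237 CPM in plates 1 and 2, and Cxcl2 at 21.4 and 47.4 CPM against 515 and 463 CPM.

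Of 15 receptors for microbial patterns, antibodies and their adaptors, 1 was called higher (Clec7a) and 1 lower (Fpr2, a formyl peptide receptor) than in PBS-primed BM. Of all genes, 1.18% were called higher and 1.43% lower, and the median log2 fold change of the list was 0.02. Against LPS-primed PB, 8 were called lower and 0 higher, with a median of -1.09, beside 3.47% of all genes lower. The lower genes were Clec4e, Tlr2, Cd14, Fpr1, Fpr2, Fcgr3, Fcgr4 and Fcer1g. Cd14, the co-receptor that hands LPS to TLR4, was at 87.3 and 126 CPM against 1173 and 1388 CPM (log2 fold change -4.51). Cd14, Fpr2 and Fcer1g kept their calls with library size alone and the other 5 did not. Of the 8 calls, 3 were kept without PBS-primed PB sample 1 and 4 without sample 2, and Cd14 lost its call both times. Against BM, Clec7a and Fpr2 lost their calls without sample 1. Tlr4 itself was at 122 and 42.3 CPM against 78.1 and 71.7 CPM and was not called.

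Of 14 genes of trafficking and adhesion, 2 were called higher than in PBS-primed BM and 3 lower, beside 1.18% and 1.43% of all genes. The median log2 fold change was 0.34. Csf3r was at 6748 and 5743 CPM against 2249 and 1291 CPM in BM, with 1.31 ± 0.24 (SE, edgeR adjusted p = 0.0158), and Selplg, the ligand of selectins, at 1788 and 1857 CPM against 577 and 602 CPM. The calls of Csf3r and Selplg were lost without either PBS-primed PB sample, and that of Selplg also without either BM sample. Itgam, Ceacam1 and Ly6g were called lower. Ceacam1 was called in 7 of 19 alternatives, and Itgam lost its call without PBS-primed PB sample 2. Ly6g was at 49.2 and 173 CPM against 1016 and 1062 CPM in BM (log2 fold change -3.76). Cxcr2, which promotes release from the marrow, was at 2886 and 2576 CPM against 1689 and 953 CPM, and Cxcr4, which retains cells there, at 152 and 152 CPM against 60.2 and 45.3 CPM, and neither was called. Against LPS-primed PB the list median was -0.46 and the genes called lower included Itgam, Cd47 and Ly6g, but the calls of Itgam, Cd47 and Ly6g were lost and the median became 0.46 with library size alone.

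Itga4, a subunit of the integrin VLA-4, was at 201, 253, 302 and 213 CPM in the members, against 4.88 to 43.2 CPM in cluster 0 and 0.671 to 6.01 CPM in cluster 2. Its label contrasts were not past the threshold (log2 fold change 2.70 against BM and 2.35 against LPS-primed PB, edgeR adjusted p = 0.0549 and 0.0704). T cells and monocytes also express this gene, and the part of such cells in its level was not tested.

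Of 9 tested genes of survival and apoptosis, Mcl1, which neutrophils need to survive, was called higher than in PBS-primed BM, at 2338 and 2534 CPM against 840 and 553 CPM (log2 fold change 1.29 ± 0.23, SE, edgeR adjusted p = 0.0115). The call was lost without either PBS-primed PB sample. The median over the 9 genes was 1.14, and 1.18% of all genes were called higher. Against LPS-primed PB, Bcl2a1a, Bcl2a1b and Birc3 were called lower and 0 genes higher, with a median of -2.15, beside 3.47% of all genes lower. Bcl2a1a and Bcl2a1b are near-identical copies whose reads could be split or lost in counting, and the call of Birc3 was lost with library size alone. All 3 calls were lost without either PBS-primed PB sample, and that of Bcl2a1a also with limma-voom and without LPS-primed PB sample 2.

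**Figure D2:**
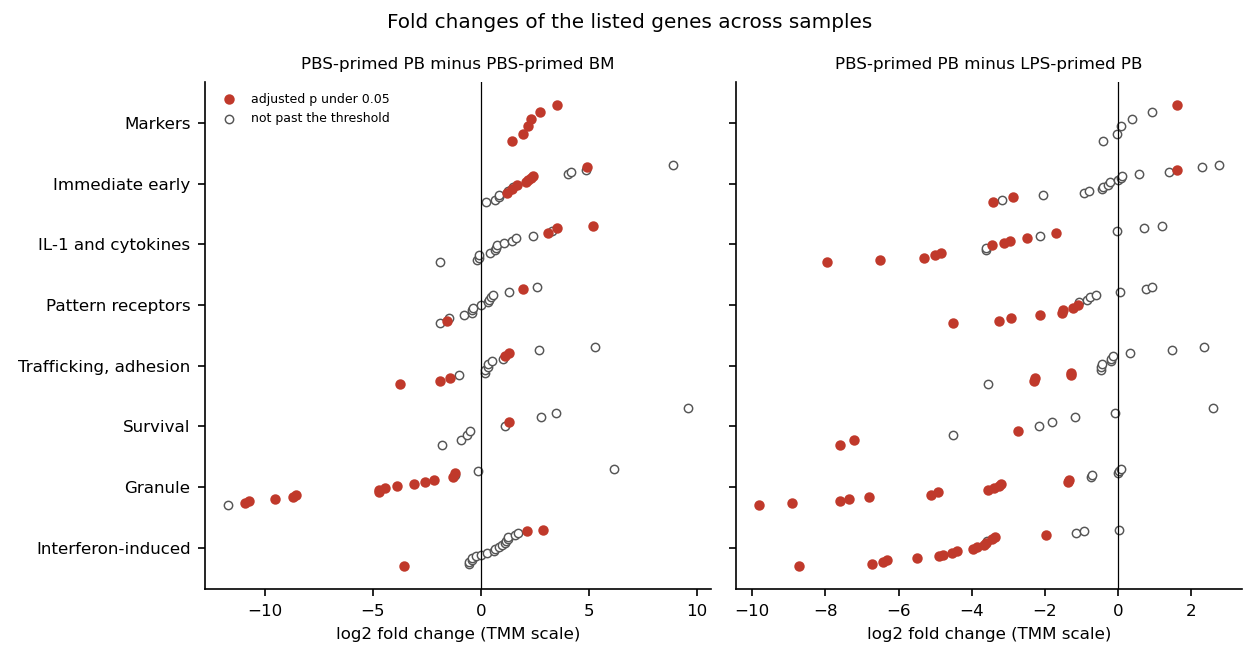
Log2 fold changes (edgeR, TMM) of the tested genes of 8 lists, with PBS-primed PB minus PBS-primed BM on the left and PBS-primed PB minus LPS-primed PB on the right. Each point is a gene, and filled points passed an adjusted p of 0.05. The markers and immediate early genes lie right of 0 against BM, with medians of 2.24 and 1.87, and granule genes lie mostly left of 0 in both panels, with medians of -4.16 and -3.32.

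Granule genes set the members apart from BM cells by the widest margins among the neutrophil lists. The 18 secondary and tertiary granule genes took between 1.054% and 1.307% of the members' UMIs, between 9.347% and 13.56% in cluster 0 and between 7.331% and 11.15% in cluster 2. Against PBS-primed BM, 14 of the 18 were called lower and 0 higher, with a median log2 fold change of -4.16. Against LPS-primed PB 13 were called lower and 0 higher, with a median of -3.32. Of all genes, 1.43% and 3.47% were called lower in these comparisons. Ltf, which encodes lactoferrin of secondary granules, was at 4.96 and 8.95 CPM in PBS-primed PB, at 8118 and 10590 CPM in PBS-primed BM and at 1409 and 2038 CPM in LPS-primed PB. Its log2 fold changes were -10.94 ± 0.42 and -8.90 ± 0.39 (SE, edgeR adjusted p = 1.83e-07 and 3.78e-07). Camp, the precursor of the antimicrobial peptide CRAMP, was at 34.3 and 35.2 CPM against 13970 and 22400 CPM in BM and 3480 and 3621 CPM in LPS-primed PB.

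Other granule genes differed less. Mmp8 was at 1007 and 1250 CPM against 6648 and 6586 CPM in BM (log2 fold change -3.07), and Mmp9, the gelatinase of tertiary granules, at 2434 and 2015 CPM against 3971 and 3671 CPM (-1.30). Mmp9 was not called against LPS-primed PB (0.09), where it stood at 1044 and 1176 CPM. Hp, which encodes haptoglobin, was at 3008 and 3426 CPM against 2705 and 2157 CPM in BM and was not called there (-0.11). Haptoglobin is also a major product of liver. Lcn2, which binds bacterial siderophores, was at 1209 and 1223 CPM, against 10320 and 14530 CPM in BM and 18290 and 20850 CPM in LPS-primed PB. Without either PBS-primed PB sample in turn, 12 of the 14 calls against BM were kept, and Pglyrp1 and Olfm4 lost theirs. With limma-voom 8 of the 14 calls against BM and 5 of the 13 against LPS-primed PB were kept, and Ltf, Camp, Ngp, Lcn2 and Chil3 lost theirs in both comparisons.

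The granule genes of the members differed between batches at low level. Ltf was at 4.96 and 6.31 CPM in samples 1 and 2 and at 120 and 80.3 CPM in plates 1 and 2. With each cell thinned to 5000 UMIs, 2.25% and 4.71% of cells had an Ltf UMI in samples 1 and 2, and 48.3% and 28.8% in plates 1 and 2, against 94.4% to 100% in cluster 0. Camp and Chil3 followed the same order, with Chil3 at 3.57 and 3.47 CPM against 180 and 117 CPM. The level in batch 6 was spread over cells: the cell median of Ltf was 0 CPM in both batch 7 samples and 106 and 75.7 CPM in plates 1 and 2. The source of these UMIs was not tested.

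Of the 8 primary granule genes, which belong to early precursors, 2 passed the filter on low counts and 0 were called in either comparison. Of the 12 proliferation genes, 6 passed the filter and 0 were called. Of all genes, 2.61% were called against BM and 3.94% against LPS-primed PB. At those shares lists this short could hold 0 calls. At an unadjusted p under 0.05 in edgeR there were 1 primary granule gene against BM and 0 against LPS-primed PB, and 0 and 2 proliferation genes. Over all 8478 genes these counts were 1569 and 1421. DESeq2 called 1 primary granule gene against BM and 2 proliferation genes against LPS-primed PB, and limma called 0 of either list. Over all genes DESeq2 called 942 and 1047 and limma 370 and 309.

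Interferon-induced genes separated the members from cluster 2 but not from cluster 0. The 20 genes summed to between 7238 and 10720 CPM in the members, between 5130 and 12780 CPM in cluster 0 and between 42440 and 49190 CPM in cluster 2. Against PBS-primed BM, 2 were called higher and 1 lower, beside 1.18% and 1.43% of all genes. The median log2 fold change was 0.75. The higher genes were Irf7, at 182 and 202 CPM against 20.5 and 40.5 CPM, and Ifitm1, at 1919 and 2418 CPM against 337 and 79.5 CPM, and the lower gene was Ifitm6. Both higher calls were lost without either PBS-primed PB sample, and that of Irf7 also with limma-voom, without BM sample 1 and after thinning to 5000 UMIs. Against LPS-primed PB, 16 of 20 were called lower and 0 higher, with a median of -3.91, beside 3.47% of all genes lower. Slfn4 was at 1585 and 1422 CPM against 11150 and 9210 CPM (log2 fold change -3.67), and Rsad2, which encodes viperin, at 459 and 238 CPM against 5338 and 4889 CPM (-4.78). With library size alone 15 of the 16 calls were kept, without sample 1 of PBS-primed PB 11 and without sample 2 9.

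**Figure D3:**
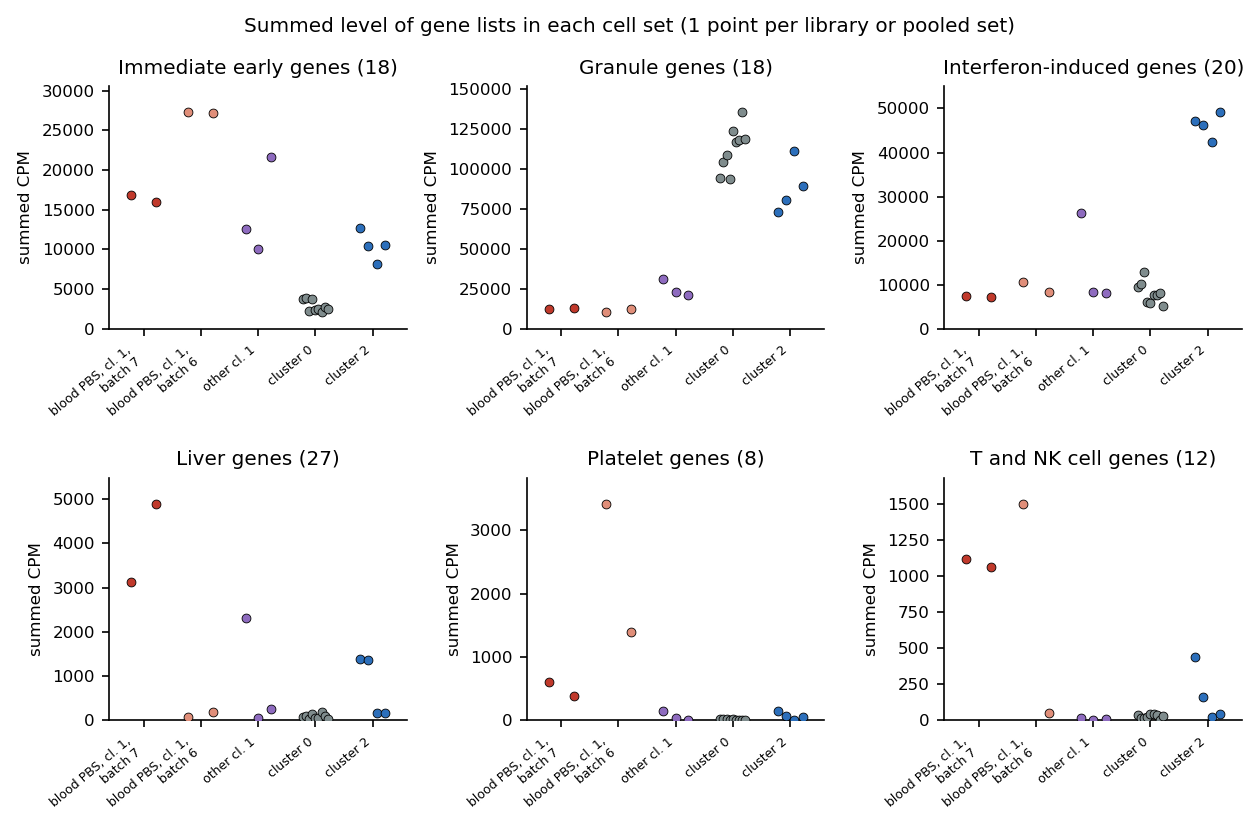
Summed CPM of 6 gene lists, 1 point for each library or pooled set of cells, on axes that start at 0. The members lie above all points of clusters 0 and 2 for immediate early genes (16020 to 27330 CPM) and hold the lowest granule sums (10540 to 13070 CPM) of the sets shown, and liver transcripts are high in the batch 7 members (3131 and 4904 CPM) and low in the batch 6 members (64.1 and 178 CPM).

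The 15 most abundant transcripts of the members were, in order, S100a8, S100a9, Malat1, Tmsb4x, Retnlg, Actb, Ftl1, Fth1, Tyrobp, S100a11, Il1b, Csf3r, Srgn, Fos and B2m. The 10 most abundant took between 20.77% and 26.91% of UMIs in a member library and between 38.93% and 51.1% in cluster 0. S100a8 was at 80256 and 82292 CPM in samples 1 and 2 and at 65130 and 97492 CPM in plates 1 and 2, against 149080 to 224070 CPM in cluster 0. In the label contrasts its log2 fold changes were -1.51 against BM and -1.71 against LPS-primed PB, and those of S100a9 were -1.88 and -2.002. Retnlg, which encodes a resistin-like protein of myeloid cells, was at 10863, 11629, 6643 and 13216 CPM in the members, with -2.20 and -2.09.

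Fth1 and Ftl1, both chains of the iron store ferritin, behaved differently. Fth1 was at 7777 and 8303 CPM in PBS-primed PB, 3944 and 3101 CPM in BM and 35887 and 33264 CPM in LPS-primed PB. It was called higher than in BM (log2 fold change 0.67) and lower than in LPS-primed PB (-3.02). Ftl1 was called higher than in BM (0.66) and was not called against LPS-primed PB (0.44). Ferritin, Tmsb4x and Actb have processed copies in the genome that could take or share reads. Malat1, a nuclear RNA, was at 49228 and 45658 CPM in the members of batch 7 and at 16141 and 16868 CPM in those of batch 6, the widest batch difference among these 15 genes. It was called higher than in BM (log2 fold change 1.49), and in batch 6 the pooled PBS-primed PB and BM cells held 16376 and 9471 CPM.

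Among the genes with the largest changes against PBS-primed BM, several were transcripts of other tissues. The 5 largest rises were Ctla2a, Serpina1e, Ttr, Pf4 and Apoc1. BM samples held 0 UMIs of each, so the folds are bounds set by 3 UMIs over the BM samples. Ctla2a, which encodes an inhibitor of cysteine proteases, was at 368 and 418 CPM, at least 1380-fold higher than in BM. It was also high in the batch 6 members, at 1724 and 827 CPM, and it was at 86.4 and 101 CPM in LPS-primed PB. For Ctla2a the 2 cells with the most UMIs held 30.3% and 30.9% of them in samples 1 and 2, and 10.8% in the batch 6 members. A close paralog of Ctla2a could share its reads. Serpina1e, Ttr and Apoc1 are made mainly by hepatocytes. They were at least 871-, 724- and 661-fold higher than in BM, whereas the batch 6 members held 0 UMIs of Serpina1e and Ttr. Pf4, a platelet chemokine, was at 244 and 157 CPM, at least 749-fold higher than in BM, and at 1020 and 581 CPM in the batch 6 members.

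The 5 largest falls against BM were A630001G21Rik, Lmo1, Pde12, Ltf and Chil3. A630001G21Rik, Lmo1 and Pde12 were at 0 UMIs in both PBS-primed PB samples and at least 306-, 258- and 192-fold lower than in BM. Their BM samples were uneven, for example 147 and 19.1 CPM for A630001G21Rik. Chil3, a chitinase-like protein of granulocyte precursors, was at 3.57 and 3.70 CPM against 3199 and 5450 CPM (log2 fold change -10.73).

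Against LPS-primed PB the 5 largest rises were Ms4a4b, Gimap4, Gimap3, Gimap6 and Eef2k. Ms4a4b and the Gimap genes are expressed by T cells. Ms4a4b was at 113 and 163 CPM in PBS-primed PB, and the 2 cells with the most UMIs held 99.0% and 91.7% of them in samples 1 and 2. For Gimap4, at 120.0 and 235 CPM, these shares were 92.6% and 97.9%. The 5 largest falls were A530032D15Rik, Smpdl3b, Chil3, Lipg and Ltf. A530032D15Rik was at 0 UMIs in both PBS-primed PB samples and at least 284-fold lower than in LPS-primed PB, and Lipg, the endothelial lipase gene, was at 2.18 and 1.54 CPM against 421 and 604 CPM (log2 fold change -8.98).

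Transcripts of other cell types were therefore measured for whole lists. The 27 liver genes were all detected in the batch 7 members and summed to 3131 and 4904 CPM, with cell medians of 3157 and 3771 CPM and a UMI in every cell. In the batch 6 members 3 and 2 of the 27 genes were detected, with 64.1 and 178 CPM. The list stood at 23.1 to 183 CPM in cluster 0, at 1383 and 1368 CPM in the batch 7 libraries of cluster 2 and at 156 and 174 CPM in its batch 6 libraries. Of the 27 genes 20 were called higher than in PBS-primed BM, beside 1.18% of all genes. The median log2 fold change of the list was 10.81, or 7.98 with the 14 genes at 0 in BM set to their bounds. In the pooled cells of batch 6, 0 of these 20 genes were higher in PBS-primed PB than in PBS-primed BM. That BM group held liver transcripts itself. In the cluster 0 cells of its plate 2 all 27 genes were detected, with a cell median of 131 CPM and a UMI in 86 of 89 cells. Against LPS-primed PB 0 of 27 were called by edgeR, DESeq2 or limma and 0 had an unadjusted p under 0.05, with a median of 0.26.

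The B cell list was concentrated in few members. It summed to 308, 611, 1390 and 887 CPM, of which 5 cells held between 88.6% and 95.6% in each library. The T and NK cell list summed to 1114, 1058, 1501 and 48.9 CPM. Against PBS-primed BM 4 of 10 tested T and NK cell genes and 1 of 6 B cell genes were called higher, beside 1.18% of all genes. The list medians were 11.27 and 7.84, or 8.63 and 7.09 with genes at 0 in BM set to their bounds. Against LPS-primed PB 5 and 1 of these genes were called higher, most from few UMIs in the LPS-primed samples, beside 0.472% of all genes. The platelet list summed to 604, 391, 3426 and 1396 CPM, against 0 to 25.8 CPM in cluster 0 and 1.84 to 147 CPM in cluster 2, with cell medians of 28.8, 22.2, 1487 and 128 CPM in samples 1 and 2 and plates 1 and 2. In these libraries 5 cells held 59.3%, 56.5%, 34.5% and 40.6% of the platelet UMIs. Of the 8 platelet genes Pf4 and Ppbp were called higher than in BM, beside 1.18% of all genes. Against LPS-primed PB 0 of the 8 were called (0 at an unadjusted p under 0.05). The monocyte and macrophage list stood at 190.1 to 800 CPM in the members, under the 901 to 1477 CPM of cluster 2, and 1 of its 6 tested genes, Ly6c2, was called, lower in both comparisons. Erythroid genes summed to 0.596 to 94.2 CPM and those of eosinophils and basophils to 17.1 to 73.5 CPM, and 0 of the 3 and 2 genes tested were called by edgeR in either comparison.

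By 2 limits set after the data were seen, 28 of the 341 members stood apart from neutrophils: 16 had under 2% of their UMIs in S100a8 and S100a9, and 20 had over 1% in 1 of the lists of other blood cells. They numbered 3, 5, 15 and 5 in the 4 libraries. The same limits marked 2 of 672 cells in cluster 0, 2 of 270 in cluster 2 and 1 of the 138 other cells of cluster 1. Without such cells the 6 markers summed to 18350 CPM in batch 7 in place of 17850 CPM, and the calls were 101 higher and 116 lower against BM and 35 higher and 255 lower against LPS-primed PB. A picked second cell, a platelet bound to the neutrophil and free RNA cannot be told apart in these counts.

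The members carried a higher ERCC ratio than all libraries of clusters 0 and 2 and fewer UMIs per cell than most of them. The ratio of ERCC spike-ins, synthetic RNAs added before reverse transcription, is the authors' value. Its median was 0.631 and 0.664 in samples 1 and 2 and 0.596 and 0.619 in plates 1 and 2, against 0.381 to 0.464 in cluster 0 and 0.398 to 0.453 in cluster 2. The other cells of cluster 1 had medians of 0.580 (LPS-primed PB, batch 7), 0.625 (BM, batch 7) and 0.635 (BM, batch 6), which are nearer to the members than to clusters 0 and 2. Within a member library the 5th and 95th percentiles of cells lay between 0.285 and 0.500 and between 0.711 and 0.734. Over the 8 labelled samples with all their cells, the PBS-primed PB samples averaged 0.649 and the other 6 samples 0.463, with a range of 0.416 to 0.520 (exact two-sided permutation test p = 0.0714, the smallest that 2 against 6 samples allow).

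Median UMIs per member cell were 49761 and 32292 in samples 1 and 2 and 46910 and 63303.5 in plates 1 and 2, against 44145 to 129816 in cluster 0 and 71938.5 to 117389 in cluster 2. Over the samples PBS-primed PB averaged 40960 UMIs and the others 60270 (49890 to 76130), again at the smallest possible p of the exact permutation test, 0.0714. Genes per cell did not follow. Their medians were 1923, 1516, 2114 and 1661 in the members and 1216 to 2395 in cluster 0, and the sample averages of 1718 and 1678 did not differ beyond the spread (exact permutation p = 1). With every cell thinned to 5000 UMIs the members had 736, 707, 803 and 648.5 genes per cell, against 458 to 807 in cluster 0.

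**Figure D4:**
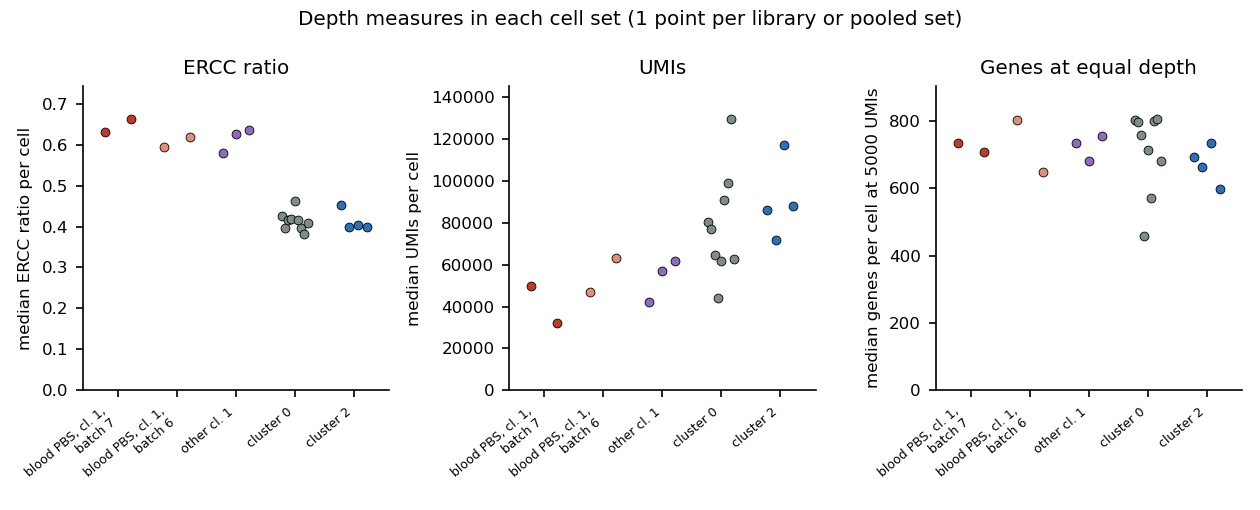
Medians per cell of the ERCC ratio (no unit), UMIs, and genes detected after thinning to 5000 UMIs, 1 point for each library or pooled set of cells. All cluster 1 points lie above those of clusters 0 and 2 for the ERCC ratio (members 0.596 to 0.664, cluster 0 0.381 to 0.464), while genes at equal depth overlap (members 648.5 to 803, cluster 0 458 to 807).

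Variation between cells was measured at the same depth of 5000 UMIs. At that depth an Il1b UMI was found in 95.5% to 100% of members of a library, against 18.2% to 63.9% in cluster 0 and 73.4% to 86.8% in cluster 2. For Fos the shares were 95.3% to 98.9%, 17.9% to 85.3% and 42.9% to 48.4%. For Clec7a they were 77.5% to 90.8%, 16.7% to 30.2% and 7.45% to 35.7%, and for Fgl2 72.5% to 89.4%, 10.4% to 25.0% and 26.6% to 50%. For Junb they were 89.9% to 97.5%, 24.7% to 62.8% and 47.3% to 76.2%. Dusp1 was found in 87.1% to 98.8% of members and 13.1% to 67.6% of cluster 0 cells, and its range in the members overlapped the 88.1% to 90.5% of cluster 2. Each marker was thus found in most members of every library. Their amount still varied widely. In sample 1 the 10th percentile, median and 90th percentile of cells were 740, 5290 and 12007 CPM for Il1b and 569, 3224 and 7476 CPM for Fos. Coefficients of variation in a library were 0.644 to 0.906 for Il1b, 0.647 to 0.937 for Fos, 0.773 to 0.900 for Junb, 0.736 to 1.08 for Dusp1, 0.900 to 1.11 for Clec7a and 0.896 to 1.19 for Fgl2.

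**Figure D5:**
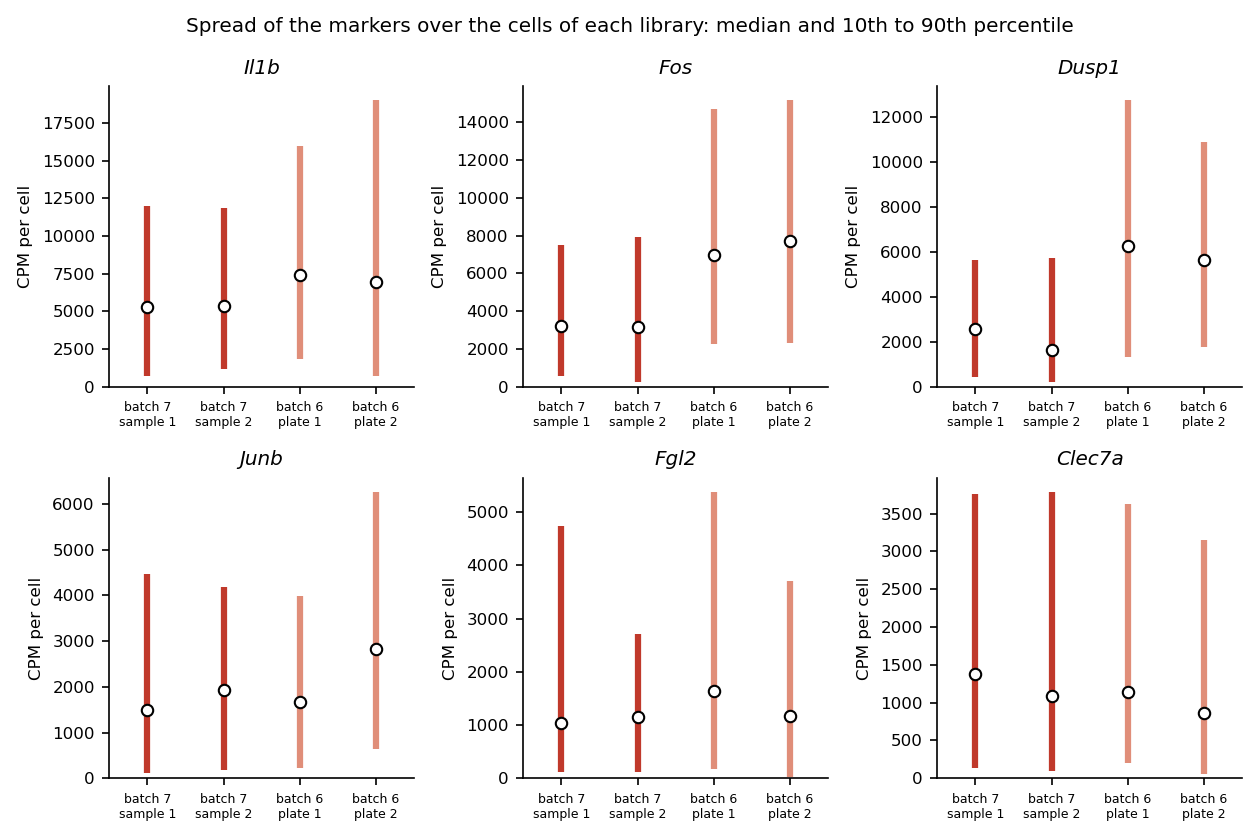
CPM per cell of the 6 markers in each member library, with the median as a circle and the 10th to 90th percentile of cells as a bar, on axes that start at 0. Bars overlap between all 4 libraries for each gene, and the medians of Fos are 3224 and 3151 CPM in batch 7 and 6967 and 7727 CPM in batch 6.

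The markers were only loosely tied to each other from cell to cell. Over 15 pairs of markers and 4 libraries, Spearman correlations ran from -0.104 to 0.372, and 7 pairs were positive in all 4 libraries, such as Il1b with Fos at 0.118 to 0.288 and Fos with Dusp1 at 0.109 to 0.326. Cells of 1 library share its depth and handling, so these values are a description.

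Genes were ranked by the lowest of their ratios of variance to mean in samples 1 and 2 and batch 6, and the first 10 were S100a8, Retnlg, S100a9, Malat1, Lyz2, Wfdc17, Ctla2a, Ms4a4b, Gm5483 and Cdk2ap2. S100a8 had ratios of 111 and 112 in samples 1 and 2 and 126 in batch 6, while a Poisson count would give a ratio near unity. Its coefficient of variation was 0.496 to 0.595 in the members and 0.127 to 0.336 in cluster 0. It was 0.2722 to 0.4052 in cluster 2 and 0.3135 to 0.3738 in the other cells of cluster 1. The members include 16 cells with under 2% of their UMIs in S100a8 and S100a9, and the part of these cells was not tested. In the members the range for S100a8 lay below those of all 6 markers, such as 0.644 to 0.906 for Il1b. The rank by variance to mean is thus not a rank by spread relative to the mean. Retnlg ranged in sample 1 from 1391 CPM at the 10th percentile of cells to 22932 CPM at the 90th. Lyz2, the lysozyme gene, was called lower than in BM (log2 fold change -2.88) and Wfdc17, a secreted protein of myeloid cells, higher (5.42), at 2347 and 2218 CPM against 52.1 and 22.8 CPM. The gap for Wfdc17 was smaller in batch 6, where the pooled PBS-primed PB and PBS-primed BM cells held 2311 and 355 CPM. Ms4a4b is in this list through few cells, as given above, and Gm5483 belongs to a family of stefin A genes whose near-identical members could share reads.

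Over 623 genes the median Spearman correlation between 2 members of the same library was 0.337, 0.329, 0.344 and 0.330, against 0.286 to 0.393 in cluster 0, 0.396 to 0.450 in cluster 2 and 0.302 to 0.339 in the other cells of cluster 1. The median ratio of variance to mean was 7.41 to 7.61 in the members, 3.25 to 10.6 in cluster 0 and 3.29 to 6.52 in cluster 2. The 4 member libraries were thus close to each other by both measures, and cell-to-cell likeness was lower than in each library of cluster 2 and within the range of cluster 0.

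The rule leaves out 138 further cells of cluster 1, which were 83 of 177 LPS-primed PB cells of batch 7 (46.9%), 1 of 186 LPS-primed PB cells of batch 6 (0.538%) and 54 BM cells. Compared with the members they had more S100a8 and S100a9, at 20.64% (LPS-primed PB), 18.37% (BM, batch 7) and 17.16% (BM, batch 6) of UMIs. Il1b lay between 3261 and 6215 CPM, Fos between 1254 and 5432 CPM and Ltf between 548 and 1448 CPM in these 3 sets. Il1b and Fos reached the members' ranges only in the highest set of each. Their medians over the 3 sets, 4625 and 1370 CPM, lay below every member library, and Ltf lay above every member library. Junb (1438 to 2595 CPM), Dusp1 (1631 to 4611 CPM), Fgl2 (1033 to 2083 CPM) and Clec7a (943 to 1339 CPM) also overlapped the members' ranges. Each batch held 2 libraries of LPS-primed PB. In batch 7, cluster 1 held 48 of 91 cells of sample 1 and 35 of 86 cells of sample 2. The 1 such cell of batch 6 came from plate 1, which held 95 cells. What set the batches apart in this share was not tested.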

How the data were processed

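SCRB-seq libraries of single mouse neutrophils were trimmed by the authors with Cutadapt 1.15, aligned to mm9 with STAR 2.6.0a, deduplicated by UMI and counted per gene with HTSeq 0.11.2. The gene annotation is not given in the sources used here. The authors deposited UMI counts of 10970 genes in 1421 cells, not normalized, with their cluster, batch and an ERCC ratio per cell, a fraction whose denominator is not given. Cells were filtered by the authors, and each had at least 5000 UMIs.

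The members and the gene lists were chosen with earlier results of these data known. Batch 7 cell names give the 8 labelled samples, and batch 6 cells were pooled by plate or group. Genes in at least 10 cells (9919) were kept, and UMI sums per sample over all cells were tested with edgeR 4.0.16 in R 4.3.3 (filterByExpr, TMM, quasi-likelihood, 1 model with the 4 groups, 8478 genes), with Benjamini-Hochberg adjustment at 0.05, two-sided. CPM, medians and thinning to 5000 UMIs used Python 3.11.15 and pandas 2.3.3. The study tested cells, which are not replicates. Doublets were not called, and cells with markers of other types were removed in an alternative. The common dispersion was 1.06. Tested on simulated data for PBS-primed PB against PBS-primed BM over 8478 genes, edgeR recovered 14.9% of 4-fold, 62.7% of 16-fold and 86.4% of 64-fold changes, with 3.54% of 113 calls wrong, so genes changed 4-fold or less were mostly out of reach.

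The genes named are the 6 markers, examples from each list (highest CPM in PBS-primed PB or largest change among the called) and the 15 most abundant genes of the members. Also named are the 5 largest rises and falls per comparison among called genes. These had 50 CPM or more in the higher group and 1 direction in every pair of samples. The last are the 10 genes ranked highest by ratio of variance to mean. Genes of the lists outside that rule (Tlr4, Cxcr4, Itga4, Ccl6, Hp) were chosen after their values were seen. A gene of the lists is not reported here by name. Alternatives were DESeq2 1.42.0, limma 3.58.1, other scalings, filters and thinning, a replicate block, batch 6 with batch as a term, the removal of liver genes, and leaving out each sample.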

Additional observations from a re-analysis of the deposited data

How the results depend on the processing

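Against PBS-primed BM the 221 calls became 942 with DESeq2, 370 with limma-voom and 416 with batch 6 added with batch as a term, and between 108 and 342 when 1 sample was left out, which leaves its group with 1 sample that is assumed to vary like the others. Against LPS-primed PB the 334 calls became 1047 with DESeq2 and 651 with batch 6 added, and between 146 and 400 when 1 sample was left out. At an unadjusted p under 0.05 there were 1569 and 1421 genes. With a replicate block the calls were 255 and 374. The labels do not say whether samples of the same number share more than that number. Correlations of their deviations ran from -0.0271 to 0.00518, which cannot exclude a pairing, and the main model assumed none. S100a11 against LPS-primed PB was called with a log2 fold change of -0.71, which reversed to 0.21 with library size alone; the cause was not tested. In the batch 7 members the summed markers moved from 17850 CPM to 17680 CPM with all PBS-primed PB cells and to 18350 CPM without cells holding markers of other types, an alternative chosen after seeing the data, and lay between 17800 and 17910 CPM with 1 sample left out. Genes per cell moved from 1720 to 721.5 at 5000 UMIs, as fewer UMIs give fewer genes, and the mean sample ERCC ratio from 0.647 to 0.604 with means in place of medians. Of the other values for single genes under an alternative, 7017 counted as unchanged, 382 lost the call and 302 gained it. Called genes counted as unchanged when they kept their call and direction. Uncalled genes did so when they stayed uncalled, even where the sign changed. The 7017 also include levels and cell shares of single markers, which have no threshold. With 2 samples per group, 1 dispersion over all groups and a p of at least 0.0714 for sample medians, absent calls do not show equal levels.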

Other observations

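The 7 PBS-primed PB cells in cluster 0 had a median of 21230 UMIs, against 46320 in the 341 members, and a median ERCC ratio of 0.537 (0.415 to 0.796), against 0.623. Summed over these cells the 6 markers stood at 6471 CPM and the granule genes at 33220 CPM, against 23990 and 11980 CPM in the members. Cell by cell the 7 overlapped the members, with markers at 1067 to 26240 CPM and granule genes at 3289 to 44840 CPM.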
